A study of Rattus norvegicus with 6 samples.

Results

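Rat hippocampal cultures labelled as neurons were compared after 6 h in 200 nM insulin and in a control labelled 0 min, with 1 library on each side. A gene was included when both libraries held a value for it and at least 1 of them reached 1 FPKM (fragments per kilobase of gene, relative to the library total). This left 6610 of the 37183 symbols in the table. Of the other symbols valued in both libraries, 16104 stayed under that level, while 2796 had a value in the 6 h library alone and 1213 in the control alone. The difference is the log2 level in the 6 h library minus that in the control, and a gene is said to have risen or fallen only where it reached 1 in size, which is 2-fold.

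The cells were primary cultures grown in serum-free Neurobasal medium with 1% B27, a supplement that normally contains insulin. At 4 h before treatment they were moved to the same medium with insulin-free B27. The 6 h culture then received 200 nM insulin, while the control carries the labels saline in its title and untreated at 0 min among its characteristics. If 0 min is when the control was collected, it had less time after the medium change than the 6 h culture, and insulin and time in insulin-free medium cannot be told apart. The series also holds a 12 h library of these cultures and 3 matching libraries of astrocyte-labelled cultures, 6 libraries in all. No strain, age or number of animals was read from the labels. With 1 library per group no spread could be measured, so every comparison below gives sizes only, without a test.

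Insulin binds a receptor tyrosine kinase that works through IRS adaptor proteins, PI3 kinase and AKT. AKT keeps FoxO transcription factors out of the nucleus, which lowers their fasting-response targets, and with mTORC1 it promotes protein synthesis and the SREBP factors that drive sterol and fatty acid synthesis genes. In the hippocampus insulin receptors are found on neurons and on glia, and hippocampal insulin signalling is studied for its part in synaptic plasticity and memory.

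The markers pointed to a mixed culture of GABAergic neurons, astrocytes and oligodendrocyte-lineage cells rather than neurons alone. Neuronal tubulin (Tubb3) was at 32.5 FPKM in the 6 h library and 30.0 FPKM in the control, and the GABA-synthesising enzyme gene Gad1 was at 5.38 FPKM in the 6 h library and 5.78 FPKM in the control. The vesicular glutamate transporters that define excitatory neurons, Slc17a6 and Slc17a7, stayed at or below 0.00378 FPKM in both. Astrocytic Gfap was at 109 FPKM in the 6 h library and 96.7 FPKM in the control, and the oligodendrocyte-lineage factor Olig1 at 78.5 FPKM at 6 h and 80.6 FPKM in the control. Summed levels of the marker lists moved little: neuron markers came to 78.6 FPKM at 6 h and 74.7 FPKM in the control, with 10 of 15 reaching 1 FPKM in at least 1 library. Astrocyte markers summed to 388 FPKM at 6 h and 373 FPKM in the control, with 9 of 12 reaching 1 FPKM. Oligodendrocyte markers summed to 119 FPKM at 6 h and 126 FPKM in the control, with 6 of 8 reaching 1 FPKM. Olig1 and Cnp, at 32.1 FPKM at 6 h and 36.4 FPKM in the control, were the largest parts. Precursor markers summed to 25.6 FPKM at 6 h and 29.9 FPKM in the control, with only 2 of 6 reaching 1 FPKM, Olig2 and Pdgfra. Sox10 was just under it, at 0.897 FPKM at 6 h and 0.978 FPKM in the control. None of the markers of these 4 lists that reached 1 FPKM in at least 1 library changed 2-fold. Below that level the astrocyte marker Gjb6 was at 0.0220 FPKM at 6 h and 0.00235 FPKM in the control. Microglia markers summed to 0.651 FPKM at 6 h and 0.418 FPKM in the control, endothelial markers to 0.0344 FPKM at 6 h and 0.0297 FPKM in the control, and fibroblast markers to 0.295 FPKM at 6 h and 0.227 FPKM in the control. The smooth muscle marker Tagln was the one marker of contractile cells above 1 FPKM, at 6.53 FPKM in the 6 h library and 4.35 FPKM in the control. In such bulk RNA, fewer cells of a type and less RNA per cell cannot be told apart.

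Most genes differed little between the 6 h library and the control. Of the 6610 genes, 87.8% lay within 0.5 of the median difference on the log2 scale, and the 5th and 95th percentiles were -0.40 and 0.69. The median itself was 0.14, and 68.1% of genes lay above 0. The 6 h library had 25510 symbols with a value and the control 23927. The table was quantile-normalised, so a longer list of valued symbols gives a higher level to a gene whose rank, counted from the most abundant, is unchanged. With quantiles set again over the symbols valued in both libraries, the median was 0.003 in place of 0.14. Gene lists are set against the deposited median of 0.14 below. In all, 106 genes (1.6%) rose and 85 (1.29%) fell. Locus identifiers, small RNAs and numbered copy rows made up 62 of those that rose and 69 of those that fell. Among the 4877 other symbols 44 rose (0.902%) and 16 fell (0.328%).

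The direction of the called genes as a whole depended on scaling. Higher genes were 55.5% of the genes called on the deposited scale, against 40.1% when differences were centred on their median, 40.4% when centred on genes at 5 FPKM or more, 38.3% when quantiles were set again over symbols valued in both libraries, and 19.5% when sums over named symbols without mitochondrial and ribosomal RNA rows were made equal, a setting chosen after seeing the data. That last scaling moved every difference by -0.31, so that a list median under 0.31 on the deposited scale turns negative under it, while the place of the list against all genes scarcely moves. At the edge of the level filter, the 368 genes at 1 to 1.1 FPKM had a median difference of 0.19 with 8 higher and 6 lower, and the 395 just below the floor had 0.15 with 5 higher and 4 lower. The gene nearest the floor from above was Gnai1, whose higher value was 1.00 FPKM.

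**Figure D1:**
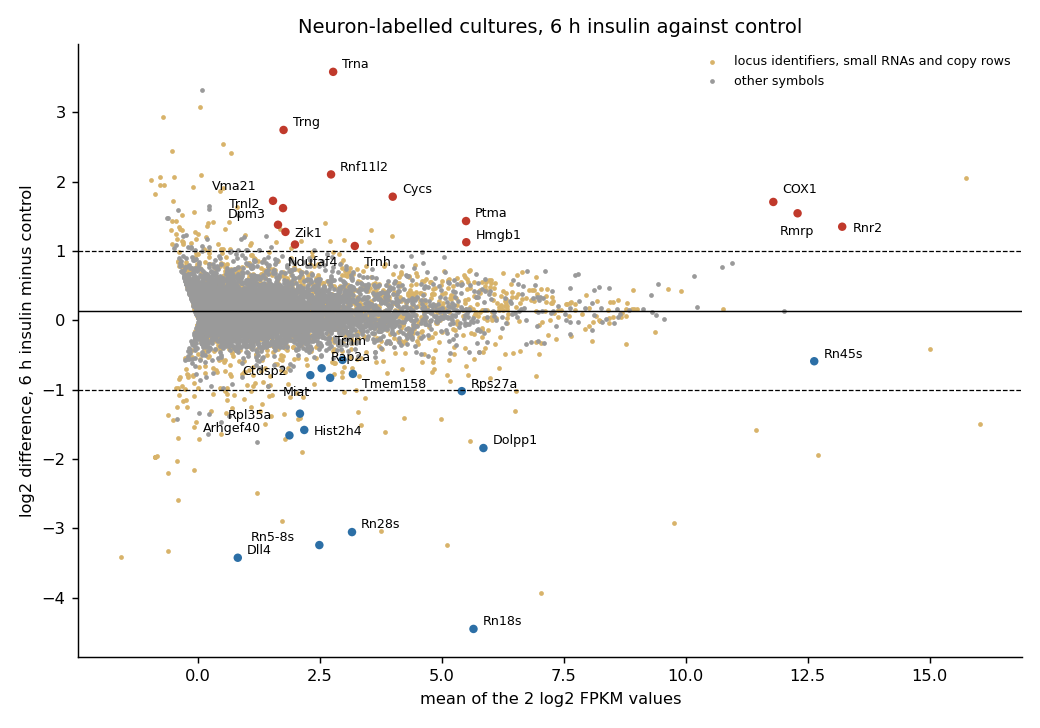
Log2 difference of the 6 h insulin library minus the control (vertical axis) against the mean log2 FPKM of both libraries (horizontal axis) for the 6610 genes, 1 point per gene. Dashed lines mark 2-fold, the solid line marks the median of 0.14, and the coloured points are the 15 named genes with the largest and the 15 with the smallest difference at 5 FPKM or more. Most points lie between the dashed lines at every level.

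Mitochondrial transfer RNA rows led the genes that rose most. Among symbols at 5 FPKM or more, Trna (alanine) and Trng (glycine) came first. Trna was at 23.6 FPKM in the 6 h library and 1.97 FPKM in the control, a 12.0-fold rise, and Trng at 8.71 FPKM at 6 h and 1.30 FPKM in the control. Transfer RNA genes are short, so a given FPKM stands for fewer fragments in them than in longer genes. No counts were used, so how few fragments lie behind these values is unknown. COX1, the catalytic subunit of cytochrome c oxidase, was at 6413 FPKM in the 6 h library and 1966 FPKM in the control, and the mitochondrial 16S ribosomal RNA Rnr2 at 15085 FPKM at 6 h and 5923 FPKM in the control. Nuclear genes for mitochondrial proteins joined them. Cytochrome c (Cycs), which carries electrons to that oxidase, was at 29.5 FPKM in the 6 h library against 8.57 FPKM in the control, and Ndufaf4, an assembly factor of complex I, at 5.78 FPKM at 6 h against 2.71 FPKM in the control. Rmrp, the RNA of RNase MRP that cuts the ribosomal RNA precursor, was at 8555 FPKM in the 6 h library and 2938 FPKM in the control. The chromatin-associated genes Ptma (prothymosin alpha) and Hmgb1 rose as well, Ptma to 73.9 FPKM at 6 h against 27.4 FPKM in the control and Hmgb1 to 66.7 FPKM at 6 h against 30.6 FPKM in the control. Vma21, an assembly factor of the proton pump of acidic organelles, was at 5.26 FPKM in the 6 h library against 1.59 FPKM in the control, and Dpm3, a subunit of the enzyme that makes dolichol-linked mannose, at 5.01 FPKM at 6 h against 1.93 FPKM in the control. Rnf11l2, the transfer RNA genes Trnl2 and Trnh and the zinc finger gene Zik1 completed the 15, with differences of 2.10, 1.62, 1.07 and 1.27. Cycs, Ptma, Hmgb1, Dpm3 and Rnf11l2 have near-identical copies or pseudogenes elsewhere in the genome with which reads may be shared, so their values are uncertain. Hmgb1, Ndufaf4, Trnh and Zik1 are near the 2-fold limit and fell short of it under at least 1 other scaling, with lowest values of 0.81, 0.78, 0.76 and 0.96.

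The genes that fell were led by ribosomal RNA rows and a Notch ligand. The 18S row (Rn18s) was at 10.7 FPKM in the 6 h library and 234 FPKM in the control, Rn5-8s at 1.82 FPKM at 6 h and 17.2 FPKM in the control, and Rn28s at 3.09 FPKM at 6 h and 25.7 FPKM in the control. Ribosomal RNA was depleted during library preparation, and the part of that step in these differences was not tested. The 45S precursor row Rn45s was at 5176 FPKM in the 6 h library against 7795 FPKM in the control, a difference of -0.59. Dll4, a membrane ligand of Notch receptors best known from endothelial tip cells, fell 10.7-fold, to 0.536 FPKM in the 6 h library against 5.75 FPKM in the control. It was at 0.282 FPKM at 12 h. The endothelial markers were near 0 in both libraries, as given above. Dll4 also had the lower value after insulin in the astrocyte-labelled cultures, at 0.399 FPKM after 6 h against 2.07 FPKM in their control. Dolpp1, a phosphatase that recycles dolichol for protein glycosylation, fell to 30.5 FPKM in the 6 h library against 109 FPKM in the control. Arhgef40, a guanine nucleotide exchange factor gene, was at 2.06 FPKM at 6 h against 6.50 FPKM in the control. The histone H4 row Hist2h4 and the ribosomal protein genes Rpl35a and Rps27a fell by 1.58, 1.35 and 1.02, and all of these have near copies. With 1 FPKM added Rps27a was just short of 2-fold (-0.998). The remaining genes of the 15 did not reach 2-fold: Miat, a noncoding RNA, differed by -0.83, the phosphatase gene Ctdsp2 by -0.79, Tmem158 by -0.77, the small GTPase gene Rap2a by -0.69 and the transfer RNA Trnm by -0.57.

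**Figure D2:**
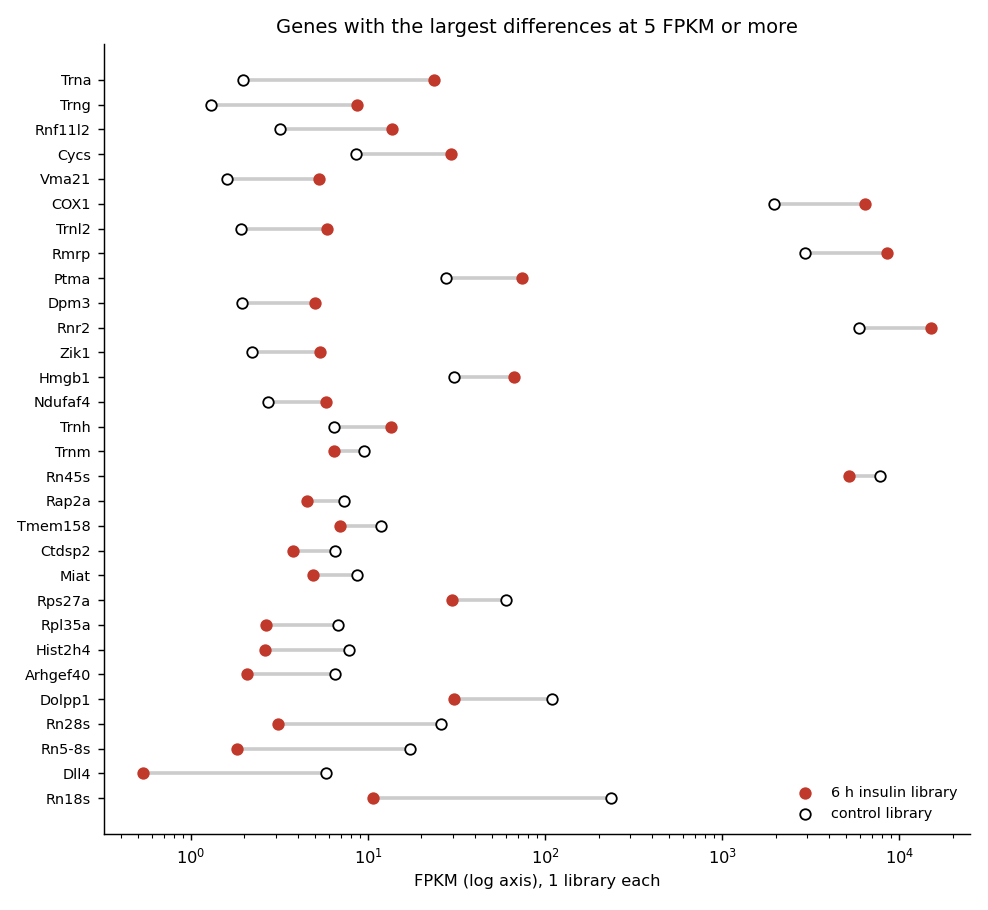
Levels in FPKM on a log axis of the 30 named genes with the largest and smallest differences, ordered by difference. Filled red points are the 6 h insulin library and open points the control, 1 library each. The distance is widest for Trna and Rn18s, and the genes between Trnm and Miat lie less than 2-fold apart.

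The first question the design raises is what the insulin pathway itself and its fasting-response targets did. As a group the FoxO and fasting-response genes stayed close to all other genes, with members on both sides of 0. Of 30 listed genes 16 were compared, none rose and 1 fell, where 1.6% of all genes rose and 1.29% fell. Their median difference was 0.01, with 7 above and 9 below the median of all genes. Set against 0, 9 lay above and 7 below. With a floor of 5 FPKM the list median was above that of all genes (0.10 from it). The gene that fell was Pnpla2, which encodes the lipase that starts triglyceride breakdown (ATGL), at 0.834 FPKM in the 6 h library and 2.30 FPKM in the control. With 1 FPKM added to each level its difference was -0.85 and short of 2-fold. Smaller values in the same direction were seen for Pik3ip1, an inhibitor of PI3 kinase, at 0.997 FPKM at 6 h against 1.48 FPKM in the control, for Ypel3 at 4.79 FPKM at 6 h against 6.86 FPKM in the control, and for Txnip, which restrains glucose uptake, at 10.6 FPKM at 6 h against 14.4 FPKM in the control. Irs2, the adaptor whose gene is itself a FoxO target, was at 1.499 FPKM in the 6 h library and 1.96 FPKM in the control. On the other side Gadd45a, a stress-response gene, was at 9.17 FPKM in the 6 h library and 6.08 FPKM in the control.

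The components of the pathway were near their control levels. Of 32 insulin and PI3 kinase pathway genes 12 were compared, none changed 2-fold, and the median was 0.11 with 5 above that of all genes. AKT1 kinase (Akt1) was at 4.06 FPKM in the 6 h library and 3.48 FPKM in the control, its activator Pdpk1 at 1.05 FPKM at 6 h and 0.865 FPKM in the control, and the regulatory subunit Pik3r1 at 2.47 FPKM at 6 h and 2.13 FPKM in the control. Among ligands and carriers of insulin-like growth factors 5 of 11 were compared. Igfbp7, a secreted binding protein, rose by 1.05, to 1.02 FPKM at 6 h against 0.496 FPKM in the control, a change that fell short of 2-fold after centring (0.91). Igfbp3 was at 1.11 FPKM at 6 h against 0.793 FPKM in the control and Igfbp5 at 2.52 FPKM at 6 h against 2.71 FPKM in the control.

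Sterol synthesis genes lay above other genes as a group, and fatty acid synthesis genes did not. Of 25 cholesterol synthesis genes and SREBP2 targets 15 were compared, with a median of 0.29 and 11 of them above the median of all genes. Idi1, the isomerase that makes the activated isoprene unit, rose by 1.01, to 7.36 FPKM in the 6 h library against 3.66 FPKM in the control. It was short of 2-fold after centring (0.87). Hmgcs1, which starts the pathway, was at 12.2 FPKM at 6 h against 8.40 FPKM in the control, the sterol oxidase gene Msmo1 at 3.29 FPKM at 6 h against 2.26 FPKM in the control, and the epoxidase gene Sqle at 3.54 FPKM at 6 h against 2.52 FPKM in the control. Tm7sf2 was the only compared member with a value below 0, at 1.81 FPKM at 6 h against 2.07 FPKM in the control. The 4 compared efflux and oxysterol genes had a median of -0.01, and Apoe, the main brain apolipoprotein, was at 752 FPKM in the 6 h library and 745 FPKM in the control.

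For fatty acid synthesis and desaturation, 11 of 19 genes were compared, none changed 2-fold, and the median was 0.06. Srebf1, the transcription factor of the pathway, was at 34.5 FPKM in the 6 h library and 44.0 FPKM in the control. The desaturase gene Scd was at 307 FPKM at 6 h against 311 FPKM in the control, while Acly, which makes cytosolic acetyl-CoA, was at 2.41 FPKM at 6 h against 1.81 FPKM in the control and the elongase gene Elovl2 at 2.995 FPKM at 6 h against 2.20 FPKM in the control. Regulators of the lipase Pnpla2 had the higher value after insulin. G0s2, its inhibitor, was at 8.26 FPKM in the 6 h library against 5.31 FPKM in the control, and Abhd5, its activator, at 1.01 FPKM at 6 h against 0.685 FPKM in the control, both short of 2-fold. The 7 compared genes of mitochondrial beta-oxidation stayed between -0.07 and 0.14, with a median of 0.05 and 1 above the median of all genes. Glycolysis and glucose uptake genes had a median of 0.11 over 20 genes, 9 of them above that of all genes, with none past 2-fold. The lactate carrier gene Slc16a1 was at 2.38 FPKM in the 6 h library and 1.64 FPKM in the control, and the glucose transporter gene Slc2a1 at 1.77 FPKM at 6 h and 1.41 FPKM in the control.

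Genes of protein folding in the cytosol lay above other genes, and a pair of them rose. Of 32 heat-shock proteins and chaperonins 23 were compared, with a median of 0.38. Of these 20 lay above the median of all genes and 2 rose, where 1.6% of all genes rose. Hspa1b, a stress-inducible HSP70 with a near-identical copy, rose to 4.01 FPKM in the 6 h library against 1.72 FPKM in the control. Chordc1, a co-chaperone of HSP90, rose to 1.35 FPKM at 6 h against 0.669 FPKM in the control. Both calls were short of 2-fold with 1 FPKM added (0.88 and 0.50). That of Chordc1 was also short after centring (0.88), and that of Hspa1b with equal sums over named symbols (0.91). The HSP110 gene Hsph1 was at 2.85 FPKM at 6 h against 1.90 FPKM in the control, the HSP90 co-chaperone gene Ptges3 at 8.13 FPKM at 6 h against 5.32 FPKM in the control, the HSP40 gene Dnaja1 at 14.5 FPKM at 6 h against 10.2 FPKM in the control, and Hsp90ab1, the abundant constitutive HSP90, at 114 FPKM at 6 h against 88.1 FPKM in the control. All 6 listed subunits of the chaperonin ring that folds actin and tubulin were above 0.2, among them Cct2 at 6.04 FPKM in the 6 h library and 4.11 FPKM in the control. Hspa8, the constitutive HSP70, was the only compared member below 0, at 14.7 FPKM at 6 h against 16.7 FPKM in the control.

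Heat-shock factor HSF1 is known to bind inverted GAA units, and promoters of this list were searched for them. In the RefSeq promoter table (assembly GRCr8, 250 bases before to 50 after each start, 27457 promoters), GAANNTTC on either strand was found in 11 of 22 promoters of compared heat-shock list members, 50%, against 8.34% of all promoters and 5.01% of the 3949 promoters of compared genes. With a further GAA unit following after any 2 bases, or its reverse complement, it was found in 6 of the 22 (27.3%), against 0.736% of all promoters. This longer pattern contains the shorter one. Of these promoters, 3 are shown because they belong to members named above that were higher after insulin, with the longer pattern in capitals (forward strand of the gene). A match describes the letters only, and binding was not measured. The shares depend on which genes are listed and compared, not on their 6 h differences.
Chordc1, chr8:23650571-23650870 (+): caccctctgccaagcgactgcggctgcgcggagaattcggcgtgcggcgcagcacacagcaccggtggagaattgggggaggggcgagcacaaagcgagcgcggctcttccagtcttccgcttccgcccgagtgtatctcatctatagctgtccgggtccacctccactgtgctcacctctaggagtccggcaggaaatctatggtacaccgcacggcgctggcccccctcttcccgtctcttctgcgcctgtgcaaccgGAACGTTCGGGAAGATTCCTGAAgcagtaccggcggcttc
Hsph1, chr12:10427118-10427417 (+): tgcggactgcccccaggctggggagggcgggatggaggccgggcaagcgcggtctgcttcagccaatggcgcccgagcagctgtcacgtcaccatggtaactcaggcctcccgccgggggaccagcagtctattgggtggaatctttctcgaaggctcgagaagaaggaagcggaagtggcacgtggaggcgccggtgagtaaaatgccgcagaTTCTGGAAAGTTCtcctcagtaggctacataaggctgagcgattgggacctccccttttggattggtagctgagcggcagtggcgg
Dnaja1, chr5:60638154-60638453 (+): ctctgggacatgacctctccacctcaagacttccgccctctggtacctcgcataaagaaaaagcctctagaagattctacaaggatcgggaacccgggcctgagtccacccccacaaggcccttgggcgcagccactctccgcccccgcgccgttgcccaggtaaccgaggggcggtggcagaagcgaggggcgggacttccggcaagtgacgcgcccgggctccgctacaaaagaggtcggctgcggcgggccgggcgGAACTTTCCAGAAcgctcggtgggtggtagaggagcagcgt
In Chordc1 the first match starts at base 11 after the start, in Hsph1 36 bases before it and in Dnaja1 at base 10 after it. Hspa8 carries 2 matches and was the list member below 0.

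Folding genes of the endoplasmic reticulum also lay above other genes, without any reaching 2-fold. Of 22 listed genes 17 were compared, 13 lay above the median of all genes, and the median was 0.29. Hspa5, the HSP70 of the endoplasmic reticulum (BiP), was at 72.1 FPKM in the 6 h library and 47.9 FPKM in the control. The lectin chaperones calnexin (Canx) and calreticulin (Calr) were at 14.6 FPKM at 6 h against 10.5 FPKM in the control and at 61.5 FPKM at 6 h against 46.4 FPKM in the control. Syvn1, a ubiquitin ligase of the degradation branch, was on the other side, at 1.78 FPKM in the 6 h library and 2.09 FPKM in the control, and Herpud1 of the same branch was at 2.92 FPKM at 6 h against 2.74 FPKM in the control. The element of this response, CCAAT followed after any 9 bases by CCACG on either strand, was found in 6 of 14 promoters of compared members (42.9%), against 0.0765% of all promoters and 0.253% of those of compared genes. The members that carry it were Hspa5, Canx, Creld2, Calr, Xbp1 and Hsp90b1, with differences between 0.18 and 0.59. The promoters of Hspa5 and Canx, the members with the largest differences among them, are shown with the element in capitals.
Hspa5, chr3:38452766-38453065 (+): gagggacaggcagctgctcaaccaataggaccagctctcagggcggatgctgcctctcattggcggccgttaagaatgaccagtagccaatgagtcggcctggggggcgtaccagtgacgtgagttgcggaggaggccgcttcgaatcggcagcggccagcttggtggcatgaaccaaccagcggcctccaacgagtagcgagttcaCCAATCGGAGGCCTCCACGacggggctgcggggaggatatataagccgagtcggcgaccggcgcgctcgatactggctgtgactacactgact
Canx, chr10:35157808-35158107 (-): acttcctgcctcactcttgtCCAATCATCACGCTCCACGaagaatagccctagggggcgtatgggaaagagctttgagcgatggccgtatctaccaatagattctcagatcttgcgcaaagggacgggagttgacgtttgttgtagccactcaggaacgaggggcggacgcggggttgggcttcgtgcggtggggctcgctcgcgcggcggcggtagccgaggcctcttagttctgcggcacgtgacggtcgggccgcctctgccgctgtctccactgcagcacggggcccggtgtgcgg
The element starts 43 bases before the start in Hspa5 and 230 bases before it in Canx. Here too the share depends on which genes are listed and compared, not on their 6 h differences, and binding was not measured.

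The integrated stress response and serine synthesis list was higher by its median, 0.36 over 22 compared of 26 genes, with 15 above that of all genes and none past 2-fold. Its transcription factor Atf4 was at 178 FPKM in the 6 h library and 133 FPKM in the control. Mthfd2, a mitochondrial folate enzyme, was just short of 2-fold, at 1.49 FPKM at 6 h against 0.750 FPKM in the control. The asparagine synthetase gene Asns was at 4.40 FPKM at 6 h against 3.21 FPKM in the control, the glycyl-tRNA synthetase gene Gars at 2.78 FPKM at 6 h against 1.93 FPKM in the control, and the secreted stress factor Gdf15 at 29.1 FPKM at 6 h against 21.0 FPKM in the control. The death-linked members did not share this: Ddit3 (CHOP) was at 4.31 FPKM in the 6 h library and 4.43 FPKM in the control, and Trib3 at 1.92 FPKM at 6 h and 2.01 FPKM in the control.

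Redox and metal-handling genes lay modestly above other genes, with none reaching 2-fold. Of 25 antioxidant and NRF2 target genes 22 were compared, 15 were above the median of all genes, and the median was 0.24. Metallothionein Mt2A was at 278 FPKM in the 6 h library and 175 FPKM in the control, the cystine carrier gene Slc7a11 at 8.58 FPKM at 6 h and 5.25 FPKM in the control, and Gclm, a subunit of the enzyme that starts glutathione synthesis, at 2.20 FPKM at 6 h and 1.45 FPKM in the control. Ferritin heavy chain (Fth1), which has many pseudogenes, was on the other side at 1.94 FPKM at 6 h against 3.74 FPKM in the control. Hypoxia-response genes had a median of 0.26 over 12 genes, 9 above that of all genes, with Hif1a at 2.38 FPKM at 6 h against 1.47 FPKM in the control. With every symbol valued in both libraries included, the NRF2 and hypoxia medians lay below that of all genes (-0.075 and -0.086 from it). Amino acid transporters (median 0.15 over 11 genes), p53 targets (0.05 over 12) and glucocorticoid-response genes (0.20 over 7) stayed near all other genes, with none past 2-fold.

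RNA splicing was the nuclear gene list with the highest median. Of 31 SR and hnRNP splicing factors 28 were compared, 23 lay above the median of all genes, and the median was 0.39, although none reached 2-fold. Srsf1, the founding SR protein, was at 45.4 FPKM in the 6 h library and 24.1 FPKM in the control, a difference of 0.91. Rbm39, a coactivator of splicing and transcription, was at 4.03 FPKM at 6 h against 2.25 FPKM in the control, Srsf10 at 6.13 FPKM at 6 h against 3.58 FPKM in the control, Hnrnph1 at 21.5 FPKM at 6 h against 12.5 FPKM in the control and Srsf2 at 42.8 FPKM at 6 h against 26.4 FPKM in the control. Snrnp70, a protein of the U1 particle that recognises splice sites, was the only compared member below 0, at 2.78 FPKM in the 6 h library against 3.51 FPKM in the control.

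Genes of making and removing proteins lay above other genes as well. Of 28 ribosome biogenesis and translation factors 22 were compared, 16 were above the median of all genes, and the median was 0.30. The cap-binding protein gene Eif4e was at 2.56 FPKM in the 6 h library and 1.34 FPKM in the control, a difference of 0.93. Nucleophosmin (Npm1), of the nucleolus, was at 10.5 FPKM at 6 h against 6.31 FPKM in the control, and Eif2s1, the subunit through which stress kinases stop initiation, at 1.93 FPKM at 6 h against 1.18 FPKM in the control. Eif4a1, the helicase partner of Eif4e, was the lowest member, at 54.0 FPKM at 6 h against 67.2 FPKM in the control. Of 31 proteasome subunits 29 were compared, 23 were above the median of all genes, and the median was 0.30, with Psmc6 of the regulatory particle at 2.84 FPKM in the 6 h library and 1.67 FPKM in the control. The 37 compared cytosolic ribosomal proteins had a median of 0.18 and 24 above that of all genes, close to the background. Rpl35a and Rps27a, which fell by 1.35 and 1.02, are not in this list.

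**Figure D3:**
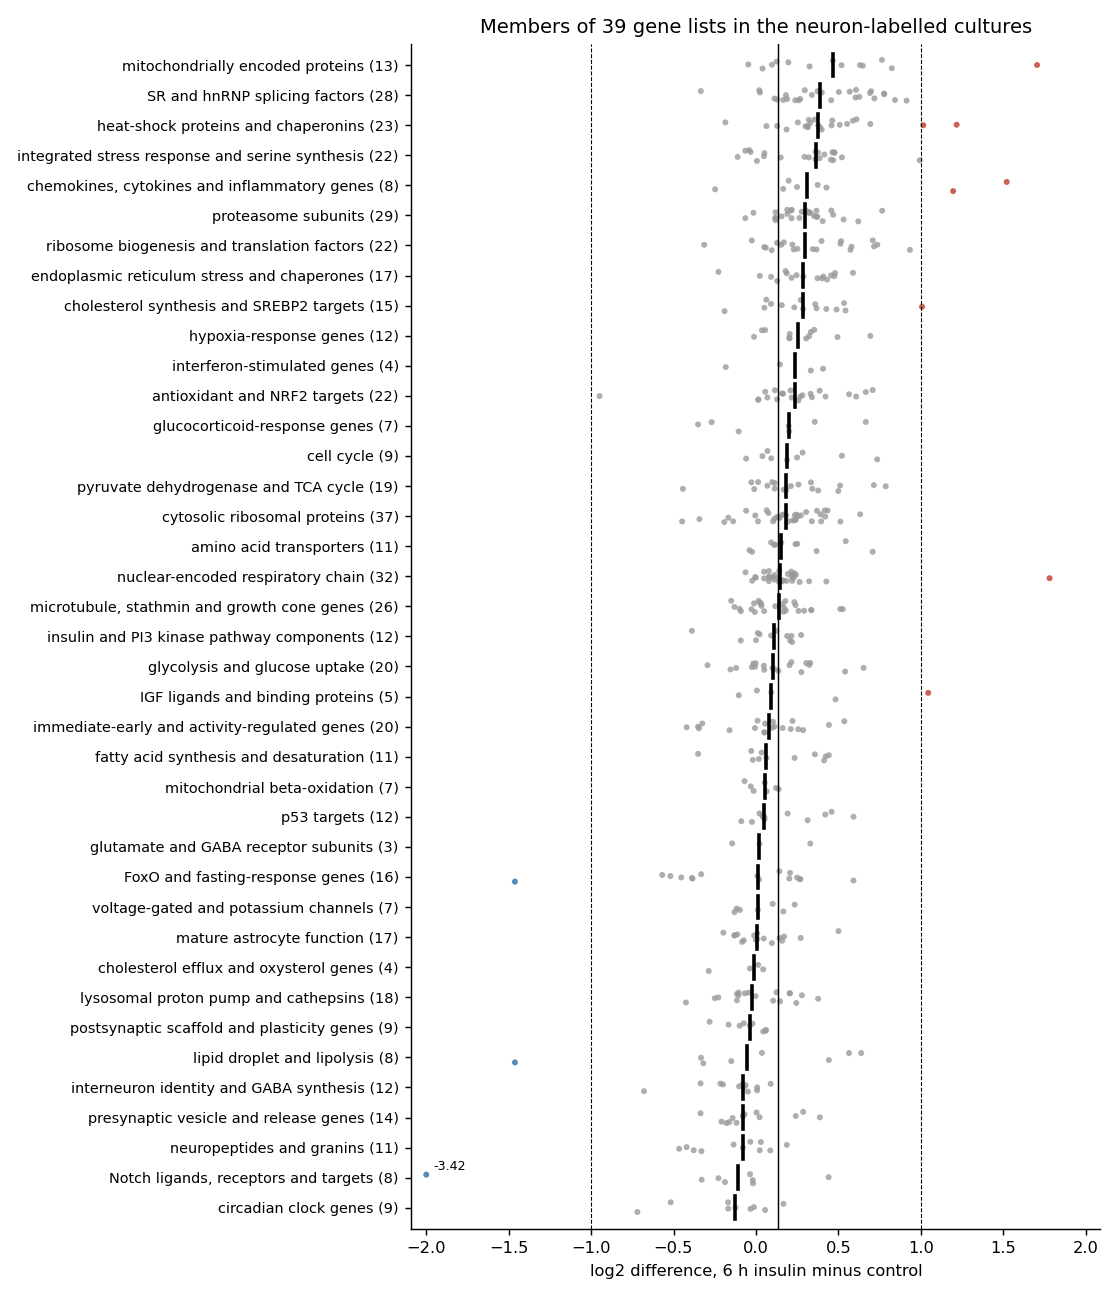
Log2 difference, 6 h insulin minus control, of each compared member of 39 gene lists, with the number compared in brackets and lists ordered by their median (black bar). The solid line is the median of all genes, dashed lines mark 2-fold, red and blue points are members past it, and Dll4 is drawn at the edge with its value of -3.42 beside it. Mitochondrially encoded, splicing and heat-shock lists lie at the top, and clock, Notch, neuropeptide, presynaptic and interneuron lists at the bottom.

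The mitochondrial genome stood out by level and by unevenness. All 13 protein genes were compared, the median was 0.47, 9 were above the median of all genes, and their levels summed to 17434 FPKM in the 6 h library and 9699 FPKM in the control. COX1 alone passed 2-fold, where 1.6% of all genes rose. COX3 was at 2611 FPKM in the 6 h library against 1475 FPKM in the control and COX2 at 2217 FPKM at 6 h against 1305 FPKM in the control, while ND2 was at 363 FPKM at 6 h against 374 FPKM in the control and ND4 at 394 FPKM at 6 h against 383 FPKM in the control. Genes transcribed on the same strand therefore differed by as much as COX1 and ND2 do. In the astrocyte-labelled cultures 12 of the 13 genes were below their control at 6 h, with a median of -0.99. The 32 compared genes of the nuclear-encoded respiratory chain had a median of 0.14, that of all genes, with Cycs the only 1 past 2-fold and Uqcrc2 of complex III next, at 3.73 FPKM in the 6 h library and 2.77 FPKM in the control. In the matrix, the pyruvate carrier gene Mpc1 was at 6.45 FPKM at 6 h against 3.74 FPKM in the control and the dehydrogenase subunit Dld at 3.38 FPKM at 6 h against 2.06 FPKM in the control, within a pyruvate dehydrogenase and TCA cycle list of median 0.18 over 19 genes.

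**Figure D4:**
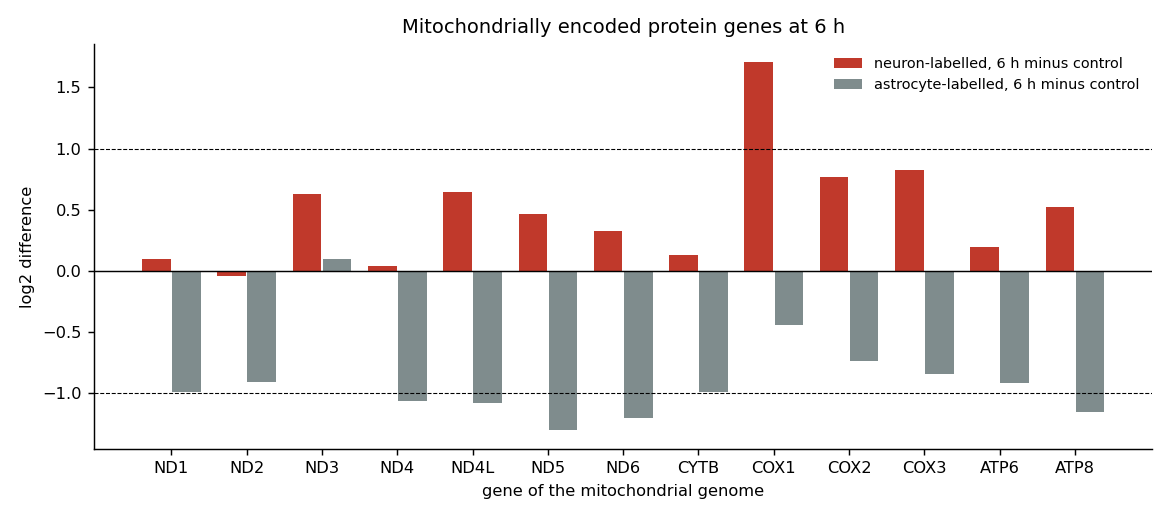
Log2 difference at 6 h minus control for the 13 protein genes of the mitochondrial genome, in the neuron-labelled (red) and the astrocyte-labelled (grey) cultures, 1 library per group. Dashed lines mark 2-fold. COX1 reaches 1.71 in the neuron-labelled cultures, and 12 of the 13 grey bars lie below 0.

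A pair of chemokine genes rose. Of 31 listed inflammatory genes 8 were compared, 7 lay above the median of all genes and 2 rose, where 1.6% of all genes rose. With a floor of 5 FPKM the list median was below that of all genes (-0.15). Ccl2, which attracts monocytes, was at 3.0 FPKM in the 6 h library and 1.05 FPKM in the control, and Cxcl1, which attracts neutrophils, at 2.90 FPKM at 6 h and 1.27 FPKM in the control. With 1 FPKM added both were short of 2-fold (0.97 and 0.78), and Cxcl1 also with equal sums over named symbols (0.89). Cx3cl1, the neuronal chemokine read by microglia, was on the other side at 5.92 FPKM at 6 h against 7.02 FPKM in the control. The sum of the 10 microglia markers was 0.651 FPKM in the 6 h library and 0.418 FPKM in the control, with Tmem119 blank in both. The part of such cells in these values was not tested. Interferon-stimulated genes had 4 compared members and a median of 0.24, with B2m at 44.6 FPKM in the 6 h library and 33.7 FPKM in the control.

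Immediate-early genes were near their control levels at 6 h. Of 42 listed genes 20 were compared, none changed 2-fold, and 7 were above the median of all genes. Fos was at 3.53 FPKM in the 6 h library and 3.30 FPKM in the control, Egr1 at 0.995 FPKM at 6 h and 1.26 FPKM in the control, and the AP-1 gene Fosl1 at 1.84 FPKM at 6 h and 1.27 FPKM in the control. Among growth genes, cyclin D1 (Ccnd1) was at 5.02 FPKM in the 6 h library against 3.01 FPKM in the control and Pcna at 12.4 FPKM at 6 h against 8.62 FPKM in the control, in a cell cycle list of median 0.19 over 9 genes. The 5 markers of dividing cells stayed below 1 FPKM in both libraries, with summed levels of 3.19 FPKM at 6 h and 2.55 FPKM in the control.

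Clock output genes were at the lower end. Of 20 circadian clock genes 9 were compared, 8 lay below the median of all genes, and the median was -0.12, with none past 2-fold. Dbp, an output factor of the clock, was at 2.88 FPKM in the 6 h library and 4.73 FPKM in the control, and the repressor gene Nr1d1 at 2.46 FPKM at 6 h and 3.53 FPKM in the control. Clock genes cycle by hour, and both cultures have 1 sampling time each.

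Synaptic and interneuron genes were slightly below other genes, and none changed 2-fold. Presynaptic genes had a median of -0.08 with 3 of 14 above that of all genes, neuropeptides and granins -0.08 with 1 of 11, interneuron identity and GABA synthesis genes -0.08 with 0 of 12, and postsynaptic genes -0.04 with 0 of 9. The interneuron factor Sp9 was at 2.60 FPKM in the 6 h library and 4.17 FPKM in the control, the vesicular GABA transporter gene Slc32a1 at 17.2 FPKM at 6 h and 21.7 FPKM in the control, and somatostatin (Sst) at 122 FPKM at 6 h and 154 FPKM in the control. Neuropeptide Y (Npy) was at 1.74 FPKM in the 6 h library against 2.40 FPKM in the control. Syt4, a vesicle protein, was the highest presynaptic member, at 15.2 FPKM at 6 h against 11.6 FPKM in the control. Microtubule and growth cone genes had a median of 0.14, that of all genes, over 26 members, with Marcks, which links actin to the membrane, at 113 FPKM in the 6 h library and 78.7 FPKM in the control. The neuron markers summed to 78.6 FPKM at 6 h and 74.7 FPKM in the control, and their part in these lists was not tested. Channels (median 0.01 over 7 genes), glutamate and GABA receptor subunits (0.02 over 3), mature astrocyte genes (0.01 over 17) and lysosomal genes (-0.02 over 18) had none past 2-fold. Within the astrocyte list the filament gene Nes was at 20.3 FPKM in the 6 h library and 14.4 FPKM in the control. Apart from Dll4, the Notch list held no change past 2-fold. The Notch target Hes1 was at 3.23 FPKM in the 6 h library and 2.38 FPKM in the control, and Hes5 at 2.85 FPKM at 6 h and 3.58 FPKM in the control.

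The 12 h library allowed each level to be followed, although it shares the control with the 6 h library, so the 2 differences are not independent and only levels are set side by side. Several genes were already at their 12 h level by 6 h. In the order control, 6 h and 12 h, Srsf1 was at 24.1, 45.4 and 46.0 FPKM, Chordc1 at 0.669, 1.35 and 1.38 FPKM, and Cxcl1 at 1.27, 2.90 and 2.95 FPKM. Others moved further, as Ccl2 did at 1.05, 3.0 and 6.26 FPKM and Hspa1b at 1.72, 4.01 and 5.53 FPKM. Neuropeptide transcripts were lowest at 12 h: Sst was at 154, 122 and 48.5 FPKM, Npy at 2.40, 1.74 and 0.358 FPKM, and Scg2, a granin, at 34.3, 35.0 and 15.2 FPKM. The summed neuron markers were also lowest at 12 h, at 74.7, 78.6 and 68.0 FPKM, with Nefl at 14.7, 13.7 and 7.33 FPKM and Gad1 at 5.78, 5.38 and 3.38 FPKM. Their part in the neuropeptide values was not tested. Another pattern was a value lowest at 6 h. Pnpla2 was at 2.30, 0.834 and 1.45 FPKM, Txnip at 14.4, 10.6 and 18.9 FPKM and Dbp at 4.73, 2.88 and 4.30 FPKM. At 12 h Pnpla2 was still below its control, by 0.66 on the log2 scale.

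**Figure D5:**
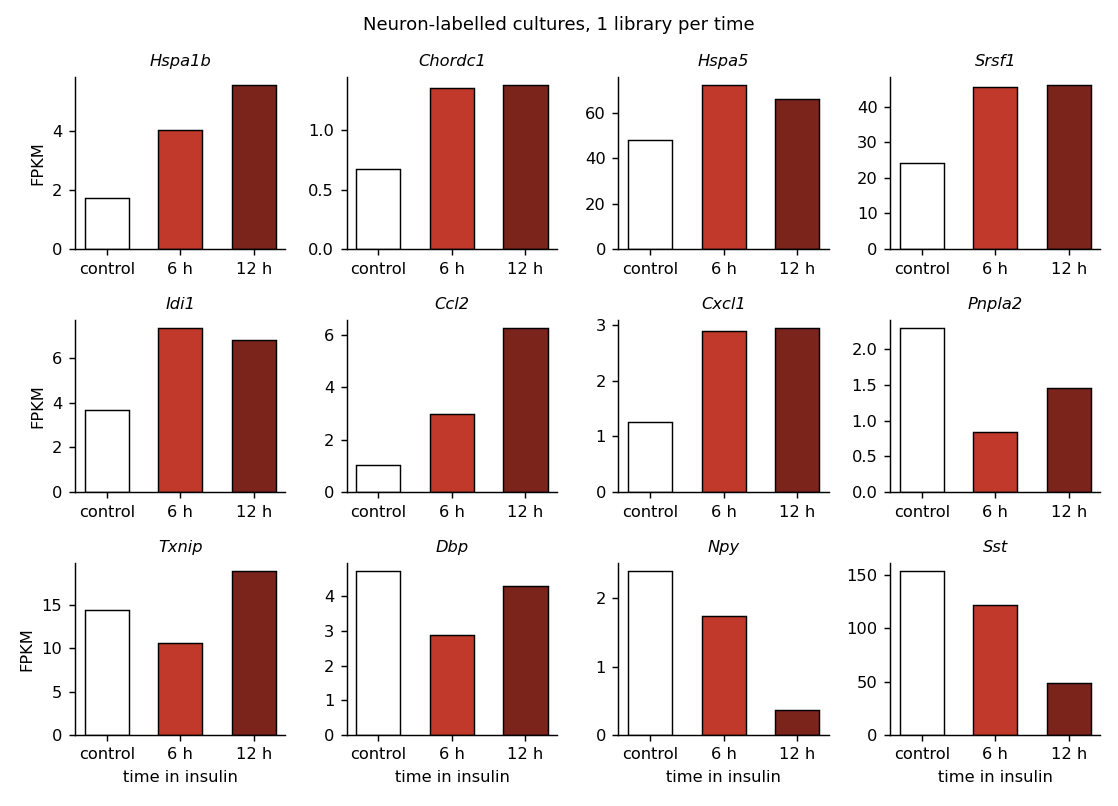
Levels in FPKM of 12 genes in the neuron-labelled cultures in the control (labelled 0 min) and at 6 h and 12 h of insulin, 1 library per time, each panel on its own linear axis from 0. Srsf1 and Cxcl1 stand at about the same level at 6 h and 12 h, Ccl2 and Hspa1b are highest at 12 h, Npy and Sst are lowest at 12 h, and Pnpla2, Txnip and Dbp are lowest at 6 h.

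In the astrocyte-labelled cultures, which have their own control, 65 of 6206 genes rose (1.05%) and 55 fell (0.886%) at 6 h. Some lists that were high in the neuron-labelled cultures had lower medians there. They were 0.18 for heat-shock genes, -0.02 for endoplasmic reticulum genes and 0.13 for splicing factors, against 0.38, 0.29 and 0.39 in the neuron-labelled cultures. Others did not: the chemokine list was at 0.56 there against 0.31, and the hypoxia list at 0.267 against 0.255. These medians are on the deposited scale and are not set against the median of all genes of each culture. On that scale the sterol list had the same median in both, 0.29. Hspa1b was at 4.96 FPKM after 6 h and 4.43 FPKM in the control of those cultures, and Srsf1 at 27.8 FPKM after 6 h and 24.0 FPKM in that control. Rmrp rose in both kinds of culture, there to 12927 FPKM after 6 h against 4569 FPKM in the control, and so did Dpm3, to 6.70 FPKM after 6 h against 3.07 FPKM in the control, and Ccl2, to 12.0 FPKM after 6 h against 4.33 FPKM in the control. Whether the 2 kinds of culture differ in their response could not be tested with 1 library per group.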

How the data were processed

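Total RNA was depleted of ribosomal RNA and sequenced from stranded libraries, per the labels' protocols. The deposited table holds the authors' log2 FPKM by gene symbol, quantile-normalised across the 6 libraries, per the file's name. Its columns share the same quantiles to within 0.000536. Base 2 was settled from the values: Rn45s (8.679 kb, by RefSeq) reached 13.67, which is 113107 fragments of the 1000000 that FPKM is scaled to, or more than the total as a natural log. Partek 6.5, bcl2fastq 2.17.1.14 and the build Rnor 6.0 are listed in the submitters' processing notes. No source used here names the aligner or annotation. No counts were used, so depth is unknown and no counting interval is given.

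Blank cells were treated as no value, and for 2 repeated symbols the row of higher mean was used. Differences were taken with Python 3.11.15, numpy 2.4.6 and pandas 2.3.3 on the deposited scale with no pseudocount, as sizes only, and the calculation was tested on simulated data. Genes were named by rule: the 15 largest and 15 smallest differences at 5 FPKM or more, leaving out locus identifiers, small RNAs and copy rows; list members past 2-fold and up to 4 more per list; and all markers. Genes outside it (the 12 h examples and some list members) were chosen after their values were seen. There were 39 gene lists and 10 marker lists with 1055 entries, of which 18 were not found. The comparison, lists and members were chosen with earlier results of these data known. Of the compared genes, 4829 matched a RefSeq symbol and 3949 a promoter of assembly GRCr8, a build other than that of the deposited table. Where replicates are lacking, sizes cannot be set against the spread between cultures. In all, 12 alternative settings were tried. Some single genes are counted in their lists and not reported by name.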

Additional observations from a re-analysis of the deposited data

Results flagged for a closer look

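The results here lie on opposite sides of 0 at 6 h in the neuron-labelled and the astrocyte-labelled cultures, each with 1 library per group, so the difference between the cultures was not tested. The median of the mitochondrially encoded protein genes was 0.47 in the neuron-labelled cultures and -0.99 in the astrocyte-labelled ones. Of its members, COX1 differed by 1.71 against -0.44, COX3 by 0.82 against -0.85, COX2 by 0.76 against -0.74 and ND4L by 0.65 against -1.09. The mitochondrial RNAs Rnr2 (1.35 against -0.23), Trna (3.58 against -0.78), Trnl2 (1.62 against -0.67) and Trnh (1.07 against -1.07) showed the same split. Among nuclear genes it was seen for Rnf11l2 (2.10 against -0.44), Vma21 (1.72 against -0.13), Ptma (1.43 against -0.30), Hmgb1 (1.12 against -0.20), Igfbp7 (1.05 against -0.14), Rbm39 (0.84 against -0.30) and Rps6 (0.63 against -1.89). The reverse split was seen for Tmem158 (-0.77 against 0.29), Rap2a (-0.69 against 1.01), Igfbp5 (-0.10 against 1.07) and Nefl (-0.10 against 1.01). In each pair the first value is that of the neuron-labelled cultures. Genes were taken from those named by rule where at least 1 of the pair was large, so the list is not complete. For example, Hist2h2aa3 (-1.38 against 1.62) and Lsm8 (1.00 against -0.35) also lay on opposite sides of 0.

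Trnan-guu_3, a transfer RNA row that the differences leave out because it was blank in the control, was at 1.18 FPKM in the 6 h library. It was the only symbol at 1 FPKM or more that was blank in the control, and 6 such symbols were blank in the 6 h library, the highest at 1.88 FPKM.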

How the results depend on the processing

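No paired analysis was possible because each group had 1 library. The main counts were 106 higher and 85 lower. They became 26 and 37 with a floor of 5 FPKM, 3049 and 875 with no floor, 42 and 50 with 1 FPKM required in both libraries, 28 and 37 with log2(FPKM + 1), and 547 and 185 when 1.5-fold was called. Without locus identifiers, small RNAs and copy rows they were 44 and 16. Setting the quantiles again gave 70 higher and 113 lower, and equal sums over named symbols, chosen after seeing the data, gave 37 and 153. Centring on either median (71 or 72 higher, 106 lower), log2(FPKM + 0.1) (82 and 79) and equal sums over all remaining rows (106 and 85) stayed within 1.5 times. Centring and equal sums shift all genes alike, apart from which of them pass the floor under equal sums, so they say little about the place of a list against all genes, and 6 alternatives remain. Under at least 1 of them 14 of 42 list medians turned round relative to all genes. Of these, 7 lay 0.1 or more from the median of all genes on the deposited scale. The FoxO list (-0.12) was 0.10 and the chemokine list (0.18) -0.15 at a floor of 5 FPKM. The droplet list (-0.19) was 0.51 at that floor and 0.085 with no floor. With no floor the NRF2 list was -0.075, the hypoxia list -0.086 and the glutamate and GABA receptor list 0.18. The interferon list was -0.0100 with quantiles set again. The other 7 started within 0.1 and turned with no floor: the IGF list was then 0.028, pyruvate and TCA -0.093, nuclear respiratory chain -0.15, cytosolic ribosomal proteins -0.12, amino acid transporters -0.17 (and -0.018 at the floor of 5 FPKM), glucocorticoid -0.15 and microtubule -0.16. The heat-shock, endoplasmic reticulum, integrated stress, proteasome, splicing, translation, sterol and mitochondrially encoded lists kept their direction in 6 of 6, as did the presynaptic, postsynaptic, neuropeptide, interneuron, lysosomal and Notch lists on the lower side. The cause of each turn was not tested. Depth is unknown. By the higher of their 2 levels, 2361 of the 6610 genes lay between 1 and 2 FPKM. So did 50 of the 106 that rose and 27 of the 85 that fell. At that level 2.12% rose and 1.14% fell, where 1.6% and 1.29% of all genes did.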

Other observations

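The gene groups here were chosen after their values were seen, and their values are given without a test. Histone rows (symbols starting Hist) lay below other genes as a group: 27 of 28 compared rows lay below the median of all genes. Their median was -0.24, and 2 fell, where 1.29% of all genes fell. Hist2h2aa3 was at 0.955 FPKM in the 6 h library and 2.49 FPKM in the control, a change short of 2-fold with 1 FPKM added (-0.84), and Hist1h2ao, among the more abundant rows, at 93.4 FPKM at 6 h and 118 FPKM in the control. Histone rows are near copies of one another, so single values are uncertain. In the astrocyte-labelled cultures all of these rows but Hist2h4 (-0.11) and Hist3h2ba (-0.36) were above their control at 6 h. Hist1h2ao was at 112 FPKM after 6 h there and 85.1 FPKM in that control. Variant and linker histone rows with symbols starting H1f, H2af or H3f had a median of 0.25 over 7 rows. Of these, 4 were above and 3 below the median of all genes. They ran from H1fx at 2.34 FPKM in the 6 h library against 3.66 FPKM in the control to H2afz at 27.8 FPKM at 6 h against 16.6 FPKM in the control. The markers of dividing cells summed to 3.19 FPKM at 6 h and 2.55 FPKM in the control.

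LSM rows (symbols starting Lsm) had a median of 0.34 over 10 rows. Of these Lsm5 and Lsm8 rose, by 1.05 and 1.00, where 1.6% of all genes rose. Both were short of 2-fold after centring (0.92 and 0.87) and with 1 FPKM added (0.56 and 0.62). Snhg4, a host gene of small nucleolar RNAs, rose by 3.33, to 3.35 FPKM in the 6 h library against 0.334 FPKM in the control, while Gas5, another host, was at 10.5 FPKM at 6 h against 7.43 FPKM in the control. Of 17 compared mitochondrial transfer RNA rows 6 rose and 1 (Trnt) fell, with a median of 0.49, where 1.6% of all genes rose and 1.29% fell. With 1 FPKM added Trnf, Trnk, Trnh and Trnt were short of 2-fold (0.498, 0.89, 0.96 and -0.87). These rows are short, so their levels may rest on few fragments. Low levels of genes known from contractile or matrix-producing cells were higher after insulin in 3 cases. Myl9, a myosin light chain, rose to 1.71 FPKM in the 6 h library against 0.762 FPKM in the control, the calponin gene Cnn2 to 2.75 FPKM at 6 h against 1.22 FPKM in the control, and the matricellular gene Cyr61 to 4.05 FPKM at 6 h against 1.94 FPKM in the control. With 1 FPKM added all 3 were short of 2-fold (0.62, 0.76 and 0.78), and Cyr61 also after centring (0.93). In the astrocyte-labelled control Myl9 was at 60.0 FPKM, Cnn2 at 19.7 FPKM and Cyr61 at 165 FPKM. Gene length went with the difference over the middle of the range, with a median gene length (RefSeq, GRCr8) of 9.36 kb for differences between -0.5 and 0, 14.7 kb between 0 and 0.5 and 20.01 kb between 0.5 and 1, whereas the 33 named symbols of 1 or more with a length had 6.71 kb.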
